A study of Homo sapiens with 6 samples.

Results

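The genes described here are the YAP/TAZ pathway and the contractile cytoskeleton, a list of 43 genes compared between 3 arrays of control cells and 3 arrays of cells that carried a hairpin against TIGD1. A gene entered when the annotation of the array gave a probe set its symbol and no other, and its brightest probe set over the 6 arrays stood for it. By this rule 42 of the 43 genes were found, out of 18244 genes on the array. The remaining one, FLNA, was not analysed here.

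Total RNA came from A549, a human lung adenocarcinoma cell line, cultured in DMEM with fetal bovine serum. The cells of all 6 samples had received a lentivirus with a short hairpin RNA, a small double-stranded RNA that directs the silencing machinery of the cell to matching transcripts. The 3 shControl arrays carried a negative control hairpin (shNC) and the 3 shTIGD1 arrays a hairpin against TIGD1, a gene related to pogo transposases. The labels number the arrays 1 to 3 in each group without saying whether they came from separate cultures, so p-values reflect only how far these samples spread, and that spread may be technical. A single hairpin was used against TIGD1, and its target site and the control sequence were these, as the labels give them.

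shTIGD1: ctgctaacacaacatccat
shNC: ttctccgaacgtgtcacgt

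YAP1 and its relative TAZ, encoded by WWTR1, are coactivators that enter the nucleus and bind the TEAD factors on DNA. The Hippo kinases keep them in the cytoplasm: STK3 and STK4, with the scaffold SAV1, activate LATS1 and LATS2, which with MOB1A phosphorylate YAP and TAZ. Tension in the actin cytoskeleton favours their nuclear form. The serum response factor SRF also reads the state of actin, through its MRTF cofactors, and many of its targets encode parts of the contractile apparatus itself. In lung epithelial cells these programmes are known for their part in spreading, repair and the transition towards a mesenchymal state.

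The values were log2 signals, in which a difference of 1 is a doubling, and the median of an array lay between 6.27 and 6.28. TIGD1 itself did not pass as lower. Its probe set read 6.96, 6.93 and 6.85 under shControl and 6.88, 6.84 and 6.86 under shTIGD1 (log2 difference -0.06, 95% interval -0.16 to 0.04, limma adjusted p = 0.389). The target gene thus gives no check of the labels, and every direction below is that of arrays labelled shTIGD1 against arrays labelled shControl. The split into higher and lower depended on how arrays were levelled. Setting them equal on spiked hybridization controls added 0.21 to every difference, and on poly-A controls 0.33, so that the median of all genes moved from -0.04 to 0.17 and 0.30. Background probe sets with 18 to 25 G or C bases of 25 also differed, with means of 7.31, 7.24 and 7.30 under shControl and 7.17, 7.08 and 7.09 under shTIGD1, while those with 3 to 17 differed by -0.03. Base composition of the members' probes was not used, and its part in the falls was not tested.

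Cell identity was checked with marker genes. The keratin genes KRT7, KRT8 and KRT18 of simple epithelium were among the brightest markers, with means up to 14.17, and the summed log2 signal of 11 epithelial markers was 102.6 to 103.0 on shControl and 103.8 to 104.5 on shTIGD1 arrays, with the adhesion genes EPCAM (0.87) and CDH1 (0.66) past the threshold. Of 10 markers of alveolar epithelium 6 had a mean under 6, and the sums of all 10 were 55.6 to 55.9 and 54.8 to 55.6, with 1 of them, LAMP3, higher (0.34, limma adjusted p = 0.0411). Because ACTA2, TAGLN and CNN1 are also made by smooth muscle cells and fibroblasts, markers of those cells were read too. The means of all 11 fibroblast markers lay between 2.98 and 5.69 and their summed log2 signal ranged from 48.1 to 48.6 on shControl and from 47.6 to 47.7 on shTIGD1 arrays, with 1 of them, COL3A1, lower (-0.56, adjusted p = 0.00409). For 8 smooth muscle markers, among them the member CNN1, the sums were 48.7 to 49.4 and 48.5 to 49.1, and 1 of them, SMTN, was lower as deposited (-0.22, adjusted p = 0.0289) but turned to 0.11 with poly-A controls. MYH11, the defining myosin of smooth muscle, read 5.54 to 5.91 on all 6 arrays, and DES, which encodes the filament protein desmin, 5.80 to 6.12. Summed signals of 8 endothelial markers (38.6 to 38.9 and 38.2 to 38.9) and of 9 immune markers (48.6 to 49.6 and 48.5 to 48.8) overlapped between the groups. In each of these lists 1 gene passed, ESAM as higher (0.33, adjusted p = 0.0472) and ITGAM as lower (-0.19, adjusted p = 0.0405). The part of other cell types in the results was not tested further. Fewer cells of a type and less RNA per cell cannot be told apart in bulk RNA.

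The promoters of the list were searched for letters that its factors are known to bind. Windows from 250 bases before to 50 bases after a RefSeq start (GRCh38.p14) were found for 34 of the 43 genes, 58 windows in all. The CArG box, the 10-base element that SRF binds, occurred in 8 of these 58 windows (13.8%) against 1.29% of all 35116 windows in the table. The pattern searched was CC, then 6 bases of A or T, then GG, which reads the same on both strands. It lay in SRF, FHL2, CNN2, TPM4, ACTN1 and FLNA, all of them SRF, its cofactor or cytoskeletal genes. GGAATG, a core that TEAD factors bind, was searched on both strands and occurred in 15 of 58 windows (25.9%) against 14.0% of all. A match describes letters only and not occupancy, and 2 of the 3 FHL2 windows with a box overlap and share it. By gene, the CArG box lay in 6 of 34 members against 438 of 27305 genes. The list holds SRF, the TEAD factors and known targets of both, so neither contrast is an independent result. The following windows are shown because their genes open the results or carry the clearest matches, each as the 250 bases before the start, 5′ to 3′ on the strand of the gene, with matches in capitals. CCN2 lies on the minus strand at chr6:131951373-131951622, SRF on the plus strand at chr6:43171019-43171268, CNN2 on the plus strand at chr19:1026358-1026607, CNN3 on the minus strand at chr1:94927111-94927360 and ACTA2 on the minus strand at chr10:88991338-88991587.

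CCN2: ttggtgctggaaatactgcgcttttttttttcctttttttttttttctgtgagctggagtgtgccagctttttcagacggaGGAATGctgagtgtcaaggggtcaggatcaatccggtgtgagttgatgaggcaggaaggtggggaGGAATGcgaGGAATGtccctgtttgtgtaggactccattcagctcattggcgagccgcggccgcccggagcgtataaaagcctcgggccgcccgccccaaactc
SRF: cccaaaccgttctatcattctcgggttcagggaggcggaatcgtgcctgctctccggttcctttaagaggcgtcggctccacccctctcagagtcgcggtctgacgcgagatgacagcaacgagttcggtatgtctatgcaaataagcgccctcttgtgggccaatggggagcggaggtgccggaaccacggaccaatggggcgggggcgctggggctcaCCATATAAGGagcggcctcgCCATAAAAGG
CNN2: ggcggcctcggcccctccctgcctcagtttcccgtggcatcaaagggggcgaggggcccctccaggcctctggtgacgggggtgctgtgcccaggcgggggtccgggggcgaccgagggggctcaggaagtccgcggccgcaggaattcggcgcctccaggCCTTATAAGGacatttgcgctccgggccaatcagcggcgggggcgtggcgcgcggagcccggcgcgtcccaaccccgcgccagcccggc
CNN3: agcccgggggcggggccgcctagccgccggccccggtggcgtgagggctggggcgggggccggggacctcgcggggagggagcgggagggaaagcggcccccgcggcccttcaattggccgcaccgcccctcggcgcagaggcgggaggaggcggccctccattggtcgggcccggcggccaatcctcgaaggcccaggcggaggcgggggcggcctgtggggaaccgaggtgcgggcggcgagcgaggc
ACTA2: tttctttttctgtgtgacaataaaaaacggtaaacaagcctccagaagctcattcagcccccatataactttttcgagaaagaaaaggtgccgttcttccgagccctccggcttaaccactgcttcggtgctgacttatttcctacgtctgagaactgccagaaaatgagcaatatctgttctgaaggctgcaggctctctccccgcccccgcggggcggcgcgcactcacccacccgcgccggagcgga

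CCN2 holds 3 copies of GGAATG, whose first bases lie 169, 104 and 95 bases before the start. SRF holds 2 CArG boxes, 30 and 10 bases before it, and CNN2 holds 1, 89 bases before it. The CNN3 and ACTA2 windows printed hold no exact match to either pattern. The second window of each, not printed, holds 1 copy of GGAATG and no exact CArG match. Boxes that depart from the pattern by a letter, or that lie outside the windows, were not searched for. The absence of a match therefore does not show that SRF has no site at these genes.

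As deposited, the contractile genes and the YAP/TAZ targets differed between the groups in small steps and in both directions. ACTA2 (smooth muscle actin), CNN2 (calponin 2), TEAD4 and TAGLN (transgelin) were lower in the shTIGD1 arrays, by 1.21-fold to 1.5-fold as deposited. Under poly-A control scaling TAGLN turned to 0.06, and TEAD4 (-0.02, limma adjusted p = 0.769) and CNN2 (-0.03, adjusted p = 0.691) lost their calls. TAGLN also lost its call with hybridization controls (-0.06, adjusted p = 0.284), while ACTA2 stayed lower under both scalings. CNN3 (calponin 3), F3 (tissue factor), NT5E (the ectonucleotidase CD73) and CRIM1 were higher, by 1.17-fold to 1.37-fold. At a threshold of 0.05 on limma's adjusted p, 20 of the 42 members were called, 9 as higher and 11 as lower, where 23.8% of all genes passed, 9.81% higher and 14.0% lower. Members are brighter than most genes, and among the 31 with a mean signal of at least 8, 15 passed, against 38.7% of all genes that bright. The median difference of the members was -0.03, beside -0.04 for all genes, and the median absolute difference 0.13, beside 0.10. For 26 members the 2 groups of arrays stood wholly apart, as they did for 42.3% of all genes. Only 8 of the 20 differed by 1.2-fold or more, and none exceeded 1.5-fold.

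These counts rest on the levelling and on all 6 arrays. With hybridization controls 26 members were higher and 3 lower, and with poly-A controls 34 and 1. Without shControl replicate 3, shTIGD1 replicate 1 or shTIGD1 replicate 3 the number of higher members was 5, and the number of lower members was 5 to 7 when any one of the 6 arrays was left out. Through all 6 of these fits 10 members kept their call, namely CCN1, CRIM1, NT5E, SRF and CNN3 as higher and TEAD4, NF2, ACTA2, TAGLN and CNN2 as lower.

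**Figure D1:**
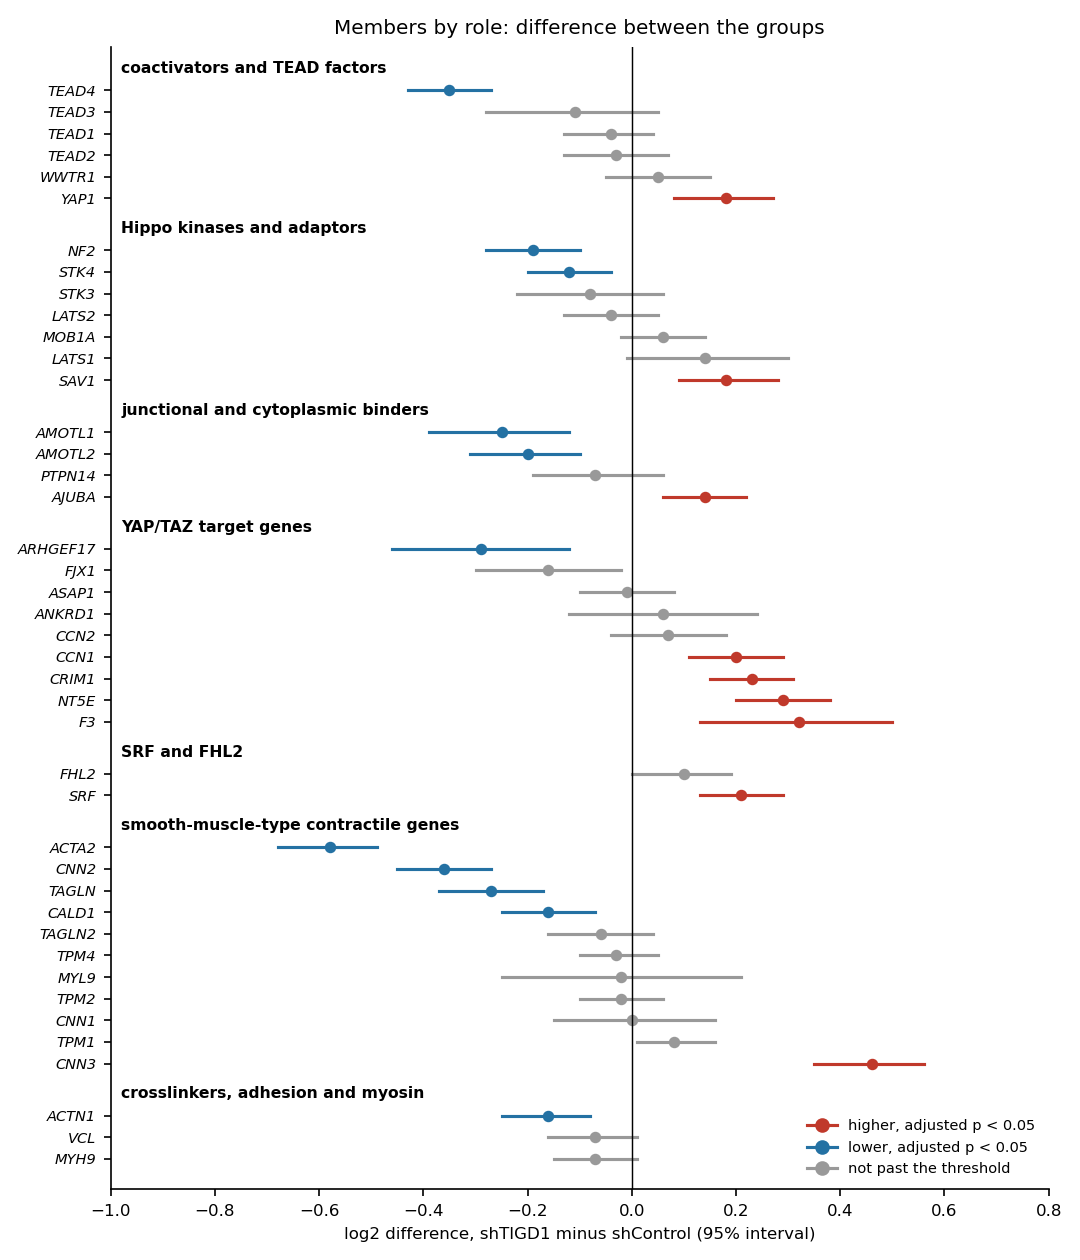
Log2 difference, shTIGD1 minus shControl, of each of the 42 members (points) with its 95% interval (lines), grouped by role and coloured by the limma call. ACTA2 lies farthest to the left at -0.58 and CNN3 farthest to the right at 0.46, and 22 members in grey did not pass; levelling on hybridization controls moves all points right by 0.21 and on poly-A controls by 0.33, which turns 5 of the 11 blue falls with the first and 8 with the second.

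Among the coactivators and their DNA-binding partners, YAP1 was higher and TEAD4 lower, and the other 4 genes did not pass. YAP1 read 10.24, 10.16 and 10.15 under shControl and 10.39, 10.34 and 10.36 under shTIGD1. The lowest shTIGD1 array thus stood above the highest shControl array (difference 0.18, SE 0.04, adjusted p = 0.0205), but 4 of the 6 fits with 1 array left out lost the call (adjusted p up to 0.0735). Of its 8 probe sets 4 passed as higher and 0 as lower. Across all probe sets with 1 symbol, 11.6% passed as higher and 10.6% as lower. WWTR1 differed by 0.05, with a 95% interval from -0.05 to 0.15, and its probe sets disagreed: 1 passed as higher (0.19) and 1 as lower (-0.14).

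TEAD4 encodes 1 of the 4 TEAD factors that give YAP and TAZ their contact with DNA. It read 8.82, 8.87 and 8.86 under shControl and 8.51, 8.50 and 8.47 under shTIGD1. All 3 shTIGD1 arrays lay below all 3 shControl arrays, by 0.35 on average (SE 0.03, adjusted p = 0.00142, 1.28-fold). The fall was -0.14 with hybridization controls (adjusted p = 0.0169) and -0.02 with poly-A controls (adjusted p = 0.769). TEAD1 (-0.04, interval -0.13 to 0.04), TEAD2 (-0.03, interval -0.13 to 0.07) and TEAD3 (-0.11, interval -0.28 to 0.05) did not pass, and their groups overlapped. The intervals of TEAD1, TEAD2 and TEAD3 do not reach the -0.35 of TEAD4, though that of TEAD3 overlaps the TEAD4 interval (-0.43 to -0.27). The difference between the TEAD genes was not tested.

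The Hippo kinase module held 1 higher and 2 lower members of 7, where 9.81% of all genes were higher and 14.0% lower. SAV1, the scaffold of STK3 and STK4, was higher (7.2, 7.29 and 7.2 against 7.41, 7.43 and 7.39; difference 0.18, adjusted p = 0.0192), and its groups did not overlap. Its second brightest probe set read -0.11 and did not pass, so the rise rests on 1 of 3 probe sets. NF2, which encodes merlin, an activator of the kinases at the membrane, read 9.45, 9.45 and 9.39 on the shControl and 9.26, 9.21 and 9.23 on the shTIGD1 arrays. It was lower by 0.19 (SE 0.04, adjusted p = 0.0128), and the difference turned to 0.02 and 0.14 under the control scalings. Of the 7 NF2 probe sets only 1 passed as lower, with differences from -0.25 to -0.01 as deposited. STK4 passed narrowly (-0.12, adjusted p = 0.0476), lost the call whichever array was left out (adjusted p = 0.0601 to 0.130) and turned to 0.09 and 0.21 under the control scalings.

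None of the remaining kinases and adaptors passed by the brightest probe set. LATS2 differed by -0.04 (interval -0.13 to 0.05), STK3 by -0.08 (interval -0.22 to 0.06) and MOB1A by 0.06 (interval -0.02 to 0.14). LATS1 had a mean of 4.23 under shControl, within the range of background probe sets with 3 to 17 G or C bases (2.57 to 4.54), and its difference of 0.14 has no firm reading. Dimmer probe sets passed for STK3 (0.44, adjusted p = 0.0015), MOB1A (2 of 5 as higher, up to 0.27) and LATS2 (-0.19, adjusted p = 0.0246). As deposited, the kinase genes had no common direction. The control scalings raised all of them above 0, from 0.02 (NF2) to 0.39 (SAV1) with hybridization controls. With poly-A controls they ran from 0.14 (NF2) to 0.52 (SAV1).

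Of the proteins that bind YAP or LATS at junctions and in the cytoplasm, both angiomotin-like genes were lower as deposited, though not under poly-A control scaling, and AJUBA was higher. Angiomotins hold YAP away from the nucleus. AMOTL1 fell from 8.96 ± 0.07 to 8.71 ± 0.08 and AMOTL2 from 9.11 ± 0.07 to 8.90 ± 0.02 (SD, n = 3 each; differences -0.25 and -0.20, adjusted p = 0.0225 and 0.0195). Under poly-A control scaling both turned, to 0.08 and 0.13, and with hybridization controls AMOTL1 stood at -0.05 and AMOTL2 at 0.00. AJUBA, a LIM protein that restrains LATS kinases, rose by 0.14 (adjusted p = 0.0326), on 1 of 3 probe sets. PTPN14, a phosphatase that binds YAP, had a mean of 4.61 and did not pass (-0.07, interval -0.19 to 0.06).

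Of 9 target genes, 4 were higher, 1 was lower and 4 did not pass, with a median difference of 0.07. Of all genes, 9.81% were higher and 14.0% lower. CCN1 and CCN2 encode matricellular proteins and are among the most used readouts of YAP and TAZ. CCN1 read 10.52, 10.51 and 10.46 on the shControl and 10.69, 10.66 and 10.74 on the shTIGD1 arrays. It was higher on every shTIGD1 array (difference 0.20, SE 0.04, adjusted p = 0.0128), and both of its probe sets passed. CCN2, whose promoter is shown above with its 3 GGAATG copies, read 9.83, 9.89 and 9.86 against 9.90, 10.01 and 9.88. Its groups overlapped and it did not pass (0.07, interval -0.04 to 0.18, adjusted p = 0.296), while 1 of its dimmer probe sets passed as higher (0.22, adjusted p = 0.0233).

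Of the other targets, CRIM1 and NT5E had the most uniform rises. CRIM1, a membrane protein that binds BMP growth factors, read 11.19, 11.23 and 11.18 on the shControl and 11.43, 11.46 and 11.40 on the shTIGD1 arrays (difference 0.23, SE 0.03, adjusted p = 0.0057). NT5E, which makes adenosine outside the cell, read 8.60, 8.59 and 8.65 against 8.91, 8.94 and 8.87 (difference 0.29, SE 0.04, adjusted p = 0.00357). In both genes the groups were apart by more than their spread and all 3 probe sets passed as higher, up to 0.46 for CRIM1 and 0.60 for NT5E.

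F3, the trigger of blood coagulation, read 6.22, 6.46 and 6.18 on the shControl and 6.63, 6.6 and 6.58 on the shTIGD1 arrays. It passed (0.32, SE 0.08, adjusted p = 0.0292), but shControl replicate 2 lay nearer to the shTIGD1 arrays, and the adjusted p ranged from 0.00548 to 0.0879 when 1 array was left out. ARHGEF17 moved the other way, from 6.89 ± 0.13 to 6.6 ± 0.05 (SD, n = 3 each; difference -0.29, adjusted p = 0.0274), and turned to 0.04 under poly-A control scaling. FJX1 (-0.16, adjusted p = 0.0922) and the Arf regulator ASAP1 (-0.01, adjusted p = 0.87) did not pass. ANKRD1, a YAP target widely used in other cells, had a mean of 3.23 on the shControl and 3.29 on the shTIGD1 arrays, a level of background probes, so that no difference could be read.

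**Figure D2:**
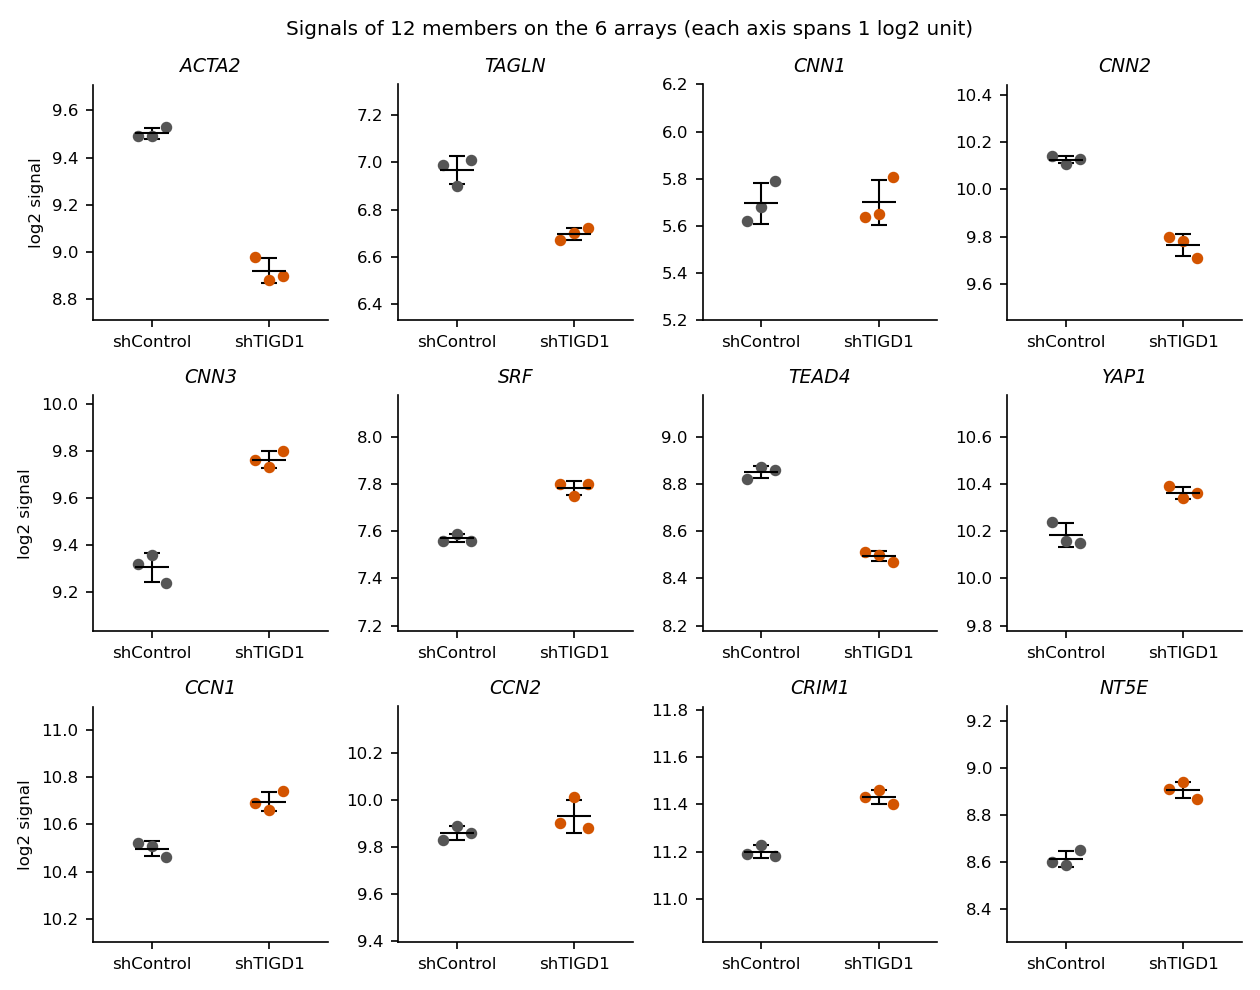
Log2 signal of 12 members on the 3 shControl (grey) and 3 shTIGD1 (orange) arrays, with the mean and SD as black bars; every axis spans 1 log2 unit. ACTA2, TAGLN, CNN2 and TEAD4 lie lower and CNN3, SRF, YAP1, CCN1, CRIM1 and NT5E higher on all 3 shTIGD1 arrays as deposited, while CNN1 and CCN2 overlap. Under poly-A control scaling TAGLN turned to 0.06, and TEAD4 (-0.02) and CNN2 (-0.03) lost their calls.

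SRF was itself higher. Its brightest probe set read 7.56, 7.59 and 7.56 on the shControl and 7.80, 7.75 and 7.80 on the shTIGD1 arrays (difference 0.21, SE 0.03, adjusted p = 0.00684), with no overlap. Its other probe set was dim (5.41 and 5.38) and did not pass (-0.03). The SRF promoter carries 2 of the boxes that its own product binds, as printed above. FHL2, a LIM cofactor of SRF with boxes in 3 of 4 windows, read 9.36, 9.29 and 9.27 against 9.39, 9.38 and 9.43 and did not pass (0.10, adjusted p = 0.128). Its groups did not overlap, as in 42.3% of all genes.

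Contractile genes of the smooth muscle type held the members with the largest changes in either direction. Of 11, 4 were lower, 1 was higher and 6 did not pass, beside 14.0% lower and 9.81% higher of all genes. ACTA2, the actin of smooth muscle and myofibroblasts, read 9.49, 9.49 and 9.53 on the shControl and 8.98, 8.88 and 8.90 on the shTIGD1 arrays. The groups were separated by far more than the spread of either (difference -0.58, SE 0.04, 1.5-fold, adjusted p = 0.000525). The fall was -0.37 with hybridization and -0.25 with poly-A controls (adjusted p = 0.000707 and 0.0082), and ACTA2 was the member that also passed a test against a change of 1.2-fold. The other 2 probe sets of ACTA2 had shControl means of 3.61 and 3.32, at the level of background probes, and did not pass (-0.13 and -0.14).

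ACTA2 overlaps FAS, the gene of a death receptor, by 27288 bases in the RefSeq annotation, counted over the full extent of both genes. ACTA2 has a second start, whose window lies at chr10:88952724-88953023, away from the one printed. Whether transcripts from that start overlap FAS was not examined. FAS is no member and was looked up after its values were known. It read 8.48, 8.52 and 8.38 on the shControl and 7.45, 7.32 and 7.35 on the shTIGD1 arrays, a fall of 1.08 (SE 0.05, adjusted p = 0.000233), and both of its probe sets passed as lower. The neighbours thus fell together, FAS by more. Which strand and transcripts their probes match was not tested.

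TAGLN, an actin-binding protein and an early marker of smooth muscle, read 6.99, 6.90 and 7.01 on the shControl and 6.67, 6.70 and 6.72 on the shTIGD1 arrays. Every shTIGD1 array was lower (difference -0.27, SE 0.04, adjusted p = 0.00622), and 4 of 6 probe sets were called lower, with 0 called higher. Under poly-A control scaling the difference turned to 0.06. TAGLN2, its widely expressed relative, was far from passing (-0.06, interval -0.16 to 0.04), and 0 of its 5 probe sets passed.

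Of the 3 calponins, which bind actin and restrain myosin, CNN2 was lower as deposited, CNN3 was higher and CNN1 did not pass. CNN1, the smooth muscle form, read 5.62, 5.68 and 5.79 on the shControl and 5.64, 5.65 and 5.81 on the shTIGD1 arrays (difference 0.00, interval -0.15 to 0.16, adjusted p = 0.979), and none of its 4 probe sets passed. The CNN1 signal was as low as that of the smooth muscle marker MYH11 (5.54 to 5.91), so its difference has no firm reading. CNN2 read 10.14, 10.11 and 10.13 against 9.80, 9.78 and 9.71, a fall of 0.36 (SE 0.04, 1.28-fold, adjusted p = 0.00183), and all 9 of its probe sets passed as lower. CNN3 read 9.32, 9.36 and 9.24 against 9.76, 9.73 and 9.80, a rise of 0.46 (SE 0.04, 1.37-fold, adjusted p = 0.00147), on its single probe set. CNN2 and CNN3 thus moved in opposite directions on all arrays, each by several times its spread. The CNN2 fall was -0.15 with hybridization controls (adjusted p = 0.0266) and -0.03 with poly-A controls (adjusted p = 0.691), while both scalings add to the CNN3 rise. Of their printed promoters, that of CNN2 has the CArG box and that of CNN3 has none. The box lay in 1 of 10 windows of higher members (10.0%) and in 2 of 17 of lower members (11.8%). For members not past it lay in 4 of 30 windows (13.3%). By gene, among members with a window, the counts were 1 of 7, 2 of 8 and 2 of 18, too few to compare. The part of the box in the 2 directions was not tested.

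Tropomyosins, caldesmon and the regulatory myosin light chain make up the rest of this group. TPM1 (0.08, interval 0.01 to 0.16, adjusted p = 0.105), TPM2 (-0.02, interval -0.10 to 0.06) and TPM4 (-0.03, interval -0.10 to 0.05) are coiled coils along the actin filament, and none of them passed. MYL9, the light chain that is phosphorylated to trigger contraction, varied most among the control arrays (6.99, 6.62 and 6.89) and did not pass (-0.02, interval -0.25 to 0.21). CALD1, which blocks myosin on actin until phosphorylated, was lower with its brightest probe set (11.06, 11.00 and 11.02 against 10.87, 10.83 and 10.90; difference -0.16, adjusted p = 0.0235). That direction turned to 0.06 with the mean of all its probe sets, to 0.15 with the second brightest, and to 0.05 and 0.17 with the control scalings.

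Of the crosslinking and adhesion genes, ACTN1, the alpha-actinin of stress fibres, was lower as deposited, though not under the control scalings. It read 11.79, 11.72 and 11.74 on the shControl and 11.61, 11.58 and 11.58 on the shTIGD1 arrays (difference -0.16, SE 0.04, adjusted p = 0.0209), and 5 of its 7 probe sets were called lower, with 0 called higher. The difference turned to 0.05 and 0.17 under the control scalings. VCL, which encodes vinculin of focal adhesions (-0.07, interval -0.16 to 0.01), and MYH9, the main nonmuscle myosin heavy chain (-0.07, interval -0.15 to 0.01), did not pass. In both the shTIGD1 arrays lay below the shControl arrays as deposited, and the groups stood apart for 42.3% of all genes. With hybridization and poly-A controls both turned and passed as higher, VCL at 0.13 and 0.26 and MYH9 at 0.14 and 0.27.

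Probe sets of 1 gene can match different transcript ends, and 35 members had more than 1. Of 161 probe sets of members, 26 passed as higher, 35 as lower and 100 did not pass, where 11.6% of all probe sets with 1 symbol passed as higher and 10.6% as lower. In 3 genes, WWTR1, TPM1 and CALD1, probe sets passed in both directions. TPM1 had 2 of 9 higher (0.14 and 0.25) and 1 lower (-0.39, adjusted p = 0.00196), and CALD1 had 1 of 10 higher (0.22) and 2 lower (-0.16 and -0.30). In 7 genes the brightest probe set did not pass while a dimmer one did, namely WWTR1, LATS2, STK3, MOB1A, CCN2, TPM1 and TPM2. For these genes the call depends on the probe set. In MOB1A and CCN2 all probe sets were above 0 and in LATS2 all were below 0, as deposited, whereas the probe sets of WWTR1, STK3, TPM1 and TPM2 had both signs. Which transcripts the probes match was not tested.

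**Figure D3:**
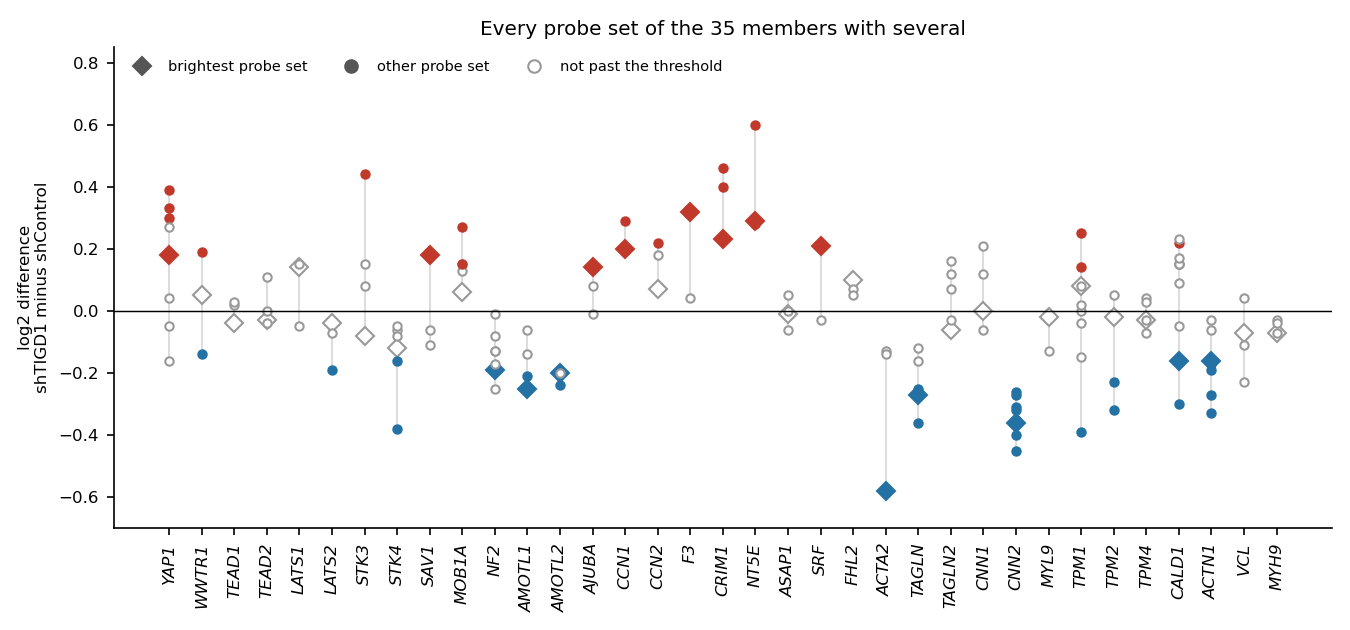
Log2 difference, shTIGD1 minus shControl, of every probe set of the 35 members with several (diamonds: brightest; circles: others; red: higher, blue: lower, open grey: not past the threshold). The 9 CNN2 probe sets all lie below 0 as deposited, whereas TPM1 runs from -0.39 to 0.25 and CALD1 from -0.30 to 0.23.

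Other genes of the pathways were read from 3 lists drawn up by pathway, with earlier results of these data known. Of 40 further Hippo genes 3 were higher and 7 lower, or 25% past the threshold beside 23.8% of all genes. VGLL3 (0.44) and VGLL4 (0.21), which bind TEAD factors in place of YAP, and the polarity gene DLG5 (0.29) rose, and the kinase genes TAOK1 (-0.41), MAP4K4 (-0.26) and STK38 (-0.23) and the scaffold WWC3 (-0.35) had the largest falls among those past the threshold. With poly-A controls MAP4K4 and STK38 turned to 0.08 and 0.10, and TAOK1 (-0.08, adjusted p = 0.434) and WWC3 (-0.02, adjusted p = 0.749) lost their calls.

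Of 27 further YAP/TAZ targets 5 were higher and 7 lower, with a median of 0.00. The share past the threshold was 44.4%, 18.5% higher and 25.9% lower, beside 23.8%, 9.81% and 14.0% of all genes. IGFBP3, which binds insulin-like growth factors (0.64, SE 0.03, adjusted p = 0.000233), the receptor kinase AXL (0.39), ARHGAP29 (0.30) and FOXF2 (0.23) had the largest rises among those past the threshold. ETV5 (-0.42), the endothelin gene EDN1 (-0.34), the caveolin gene CAV1 (-0.20) and DOCK5 (-0.17) had the largest falls past it as deposited. CAV1 and DOCK5 turned under both control scalings, and with poly-A controls ETV5 (-0.08, adjusted p = 0.139) and EDN1 (-0.01, adjusted p = 0.922) lost their calls. As deposited, the further targets thus had no common direction, while with poly-A controls 0 genes of the pathway lists were called lower.

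Of 42 cofactors of SRF and other actin genes, 4 were higher and 7 lower, with a median of -0.01. The share past the threshold, 26.2%, was near the 23.8% of all genes. The cofactors MRTFA (-0.05, adjusted p = 0.354) and MRTFB (-0.01, adjusted p = 0.91) did not pass, and neither did the cytoplasmic actins ACTB (0.10, adjusted p = 0.0581) and ACTG1 (0.03, adjusted p = 0.622). CORO1C (0.36), MYH10 (0.33), a second nonmuscle myosin, TES (0.22) and PFN2 (0.19) rose. ITGA5 (-0.35), the alpha chain of the fibronectin receptor, FERMT2 (-0.30), SMTN (-0.22) and ZYX (-0.19), a focal adhesion protein, fell as deposited, and of these FERMT2, SMTN and ZYX turned with poly-A controls. ITGA5 lost its call with hybridization (-0.14, adjusted p = 0.0568) and poly-A controls (-0.02, adjusted p = 0.805). As deposited, MYH10 thus rose where MYH9 did not pass, and their difference was not tested.

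**Figure D4:**
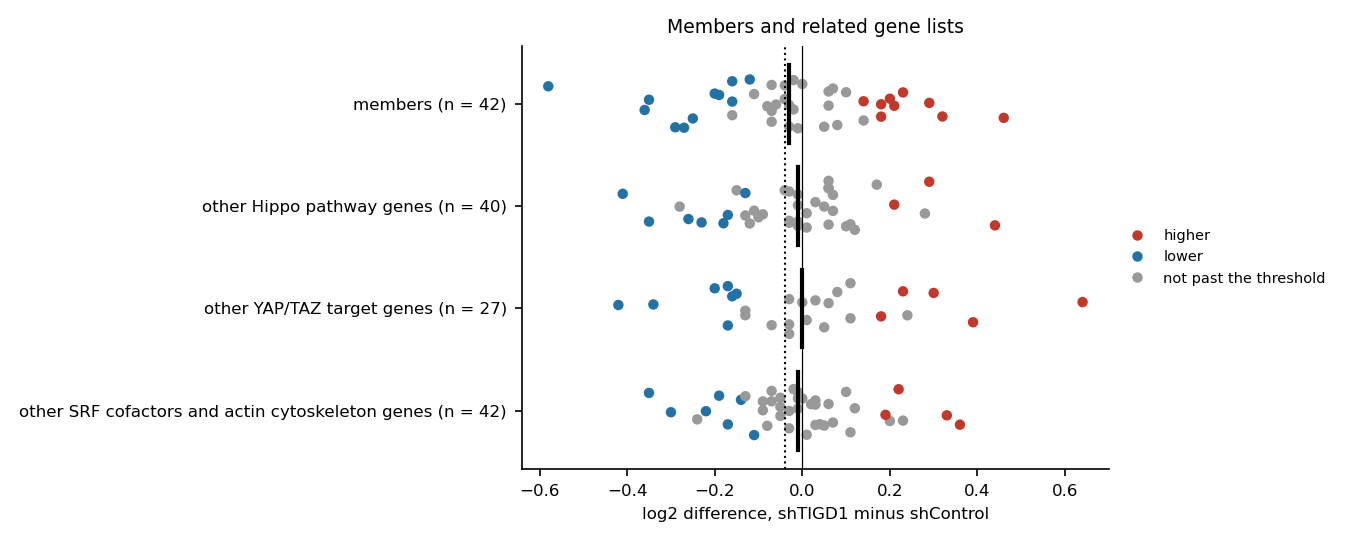
Log2 difference, shTIGD1 minus shControl, of the 42 members and of 3 related gene lists (1 point a gene, spread vertically at random; red: higher, blue: lower, grey: not past the threshold). Black bars mark the list medians, between -0.03 and 0.00, and the dotted line the median of all genes, -0.04, as deposited.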

How the data were processed

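Biotin-labelled RNA was hybridized to 6 Affymetrix arrays with 1 colour, 3 a group. The deposited values are log2 signals for 49395 probe sets, made by the authors. The submitters' processing notes name the tools GCOS and RMA, with order, settings and version not given in the sources used here. That the log has base 2 was taken from the values' range. Where RMA equalizes arrays, a shift common to most genes is removed before deposit. Of the probe sets, 102 were controls, 45278 had 1 symbol, 1333 several and 2682 none. The brightest probe set of each of 18244 genes entered a two-sided test in limma 3.58.1 (lmFit, eBayes; R 4.3.3), with p-values adjusted by Benjamini-Hochberg across these genes and called at 0.05. Probe sets were also tested one by one, adjusted over all that were no controls. Tables were made with Python 3.11.15 and pandas 2.3.3. The number of arrays limits the precision. The fit was tested on simulated data with known changes. It recovered 38% of changes of 1.2-fold, 78% of 1.5-fold and 98% of 2-fold, so small changes can fail to pass. Far fewer genes were changed there than passed here, so these shares need not hold for these data. No pair of arrays shared more than 184 equal values.

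All members were to be named, with up to 4 rises and 4 falls of each pathway list and a set of defining genes. Members, lists and tests were chosen with earlier results of these data known. Alternatives tried were other probe sets, normalizations, filters on dim genes, test settings, the replicate number as a block and leaving out each array. One further list of genes is not reported here.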

Additional observations from a re-analysis of the deposited data

How the results depend on the processing

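Repeated quantile normalization and array weights kept the call of all 42 members. Other settings moved counts. With hybridization controls members counted 26 higher and 3 lower, the pathway lists 69 and 4 (12 and 21 as reported), and all genes 8735 and 361. With poly-A controls they counted 34 and 1, 96 and 0, and 13954 and 119. Against a change of 1.2-fold (limma treat) 0 members were higher and 1 lower, in the lists 1 and 0, and in all genes 175 and 87. Replicate numbers did not pair the arrays (same-number correlations -0.03, -0.13 and -0.09, none the best of its array), and with them as a block 4 members were higher and 5 lower, 8 list genes lower, and 1098 genes higher and 1293 lower. The second brightest probe sets gave 4 lower members and 1216 lower genes. With trend and robust settings 20 list genes were higher. Leaving out 1 array gave 5 to 8 higher and 5 to 7 lower members, 9 to 11 and 10 to 14 list genes, and 1177 to 1474 and 1564 to 1912 genes.

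The turns listed are of named genes past the threshold as reported or in the alternative; genes past it in neither are left out. Directions turned with the mean of probe sets for STK3 (0.15) and CALD1 (0.06), and with the second brightest for SAV1 (-0.11), SRF (-0.03) and CALD1 (0.15). With hybridization controls they turned for TIGD1 (0.15, adjusted p = 0.0388), TEAD1 (0.16), TEAD2 (0.18), LATS2 (0.17), STK4 (0.09), NF2 (0.02), AMOTL2 (0.00), ASAP1 (0.20), TAGLN2 (0.15), TPM2 (0.19), TPM4 (0.18), CALD1 (0.05), ACTN1 (0.05), VCL (0.13), MYH9 (0.14), CAV1 (0.01), DOCK5 (0.04), ZYX (0.02), MRTFA (0.16) and MRTFB (0.20). With poly-A controls they turned for TIGD1 (0.28, adjusted p = 0.00227), TEAD1 (0.29), TEAD2 (0.30), TEAD3 (0.22), LATS2 (0.29), STK3 (0.25), STK4 (0.21), NF2 (0.14), AMOTL1 (0.08), AMOTL2 (0.13), PTPN14 (0.27), ASAP1 (0.32), ARHGEF17 (0.04), TAGLN (0.06), TAGLN2 (0.27), MYL9 (0.31), TPM2 (0.31), TPM4 (0.31), CALD1 (0.17), ACTN1 (0.17), VCL (0.26), MYH9 (0.27), MAP4K4 (0.08), STK38 (0.10), CAV1 (0.14), DOCK5 (0.16), FERMT2 (0.03), SMTN (0.11), ZYX (0.15), MRTFA (0.28) and MRTFB (0.32). The control scalings add 0.21 and 0.33 to every difference by construction. For the other settings the cause was not tested. Signals near background limit what LATS1, PTPN14 and ANKRD1, with means under 5, can show.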
